A study of Homo sapiens with 6 samples.

Results

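The genes described here are 30 genes of cholesterol synthesis and sterol regulation, taken by symbol from the 16781 genes of a table of Caco-2 transcripts. The list was drawn up by function, with earlier results of these data known, and its rule uses no measured value. All 30 were in the table and all 30 passed the filter on low counts, among 13028 genes tested. They comprise 18 enzymes that lead from acetyl-CoA to cholesterol, 5 genes that control sterol-regulated transcription and 7 genes of sterol uptake, transport and storage. Caco-2 is an established human colon adenocarcinoma line that takes on features of absorptive enterocytes. The RNA of 3 libraries of unmodified Caco-2 cells (WT) was compared with that of 3 libraries of Caco-2 cells in which CBS had been targeted with CRISPR/Cas9 (CBS KO). Both groups shared the same line and the same serum-containing, high-glucose medium. The CBS KO cells had in addition been infected with lentivirus for Cas9 and the guide and selected with puromycin, and were collected as resistant cells, with no clone named. Cells infected with an empty vector were not analysed here, so targeting, infection and selection cannot be told apart.

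Cells make cholesterol from acetyl-CoA through mevalonate, isoprenoid pyrophosphates, squalene and lanosterol. The supply is set by feedback: when sterols in the endoplasmic reticulum are low, the escort protein SCAP carries the SREBP transcription factors to the Golgi, where they are cut and released to the nucleus, and when sterols are plentiful the INSIG proteins hold SCAP back. Enterocytes also absorb sterols from the gut lumen, esterify them for export in lipoproteins and pump part of them back out.

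The WT libraries held 16097688 to 16176756 counts and the CBS KO libraries 12805168 to 14307279. Unless another unit is named, levels are CPM, a gene's count as a share of the library's total after TMM scaling (trimmed mean of M values), and errors are the SD of the 3 libraries of a group. CBS (chr21:43053191-43076873 in GRCh38), the enzyme of transsulfuration that was targeted, stood at 48.8, 52.99 and 50.6 CPM in WT and 24.6, 18.5 and 25.4 in CBS KO, 2.22-fold lower (log2 fold change -1.15, SE 0.095, adjusted p = 1.18e-08, edgeR). This is mRNA and not protein, and the near-identical copy CBSL can take part of the reads. Of 10 markers of colon epithelium only CDX1 was below 1 FPKM (a level per length of transcript) in each library. KRT20 had 0.577 ± 0.0404 FPKM in WT and 2.52 ± 0.202 in CBS KO, and CDX2 126 ± 7.25 and 26.9 ± 0.325, while EPCAM, CDH1, CDH17, VIL1, KRT8, KRT18 and KRT19 each exceeded 100 FPKM. The markers of steroid-producing cells, which also use cholesterol (STAR, CYP11A1, CYP17A1, HSD3B2, NR5A1), were all below 1 FPKM. Over the 10 epithelial markers the summed FPKM was 4760-5338 in WT and 5324-5490 in CBS KO. Of the other cell types, 5 of 6 leukocyte, 5 of 6 fibroblast and 3 of 4 endothelial markers were measured. Summed leukocyte markers went from 34.9-41.4 to 65.2-70.6 FPKM, with PTPRC and CD3E below 1 FPKM in each library. Within this sum mean CD68 went from 26.5 to 57.8 FPKM and LYZ from 2.34 to 5.87, while CD14 went from 8.70 to 3.22. Summed fibroblast markers went from 42.02-47.3 to 29.8-32.7 FPKM, with COL1A2 and COL3A1 below 1 FPKM in each library. Here mean COL1A1, not called with TMM, went from 39.7 to 28.6 FPKM and PDGFRB from 4.11 to 0.797, while LUM went from 0.703 to 1.36. Summed endothelial markers went from 8.02-8.78 to 2.07-2.17 FPKM, with VWF and CDH5 below 1 FPKM in each library, and the part of these markers in the results was not tested. In bulk RNA a change in the number of expressing cells and a change in RNA per cell cannot be told apart. Whether the 3 libraries of each group are separate cultures is not in the labels, and p-values then reflect only how far these libraries differ from each other, a difference that may be technical.

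Most sterol genes were higher in CBS KO, but the enzymes of the pathway did not move as a block. Of the 30 genes 19 rose, 6 fell and 5 did not pass (edgeR's quasi-likelihood test, Benjamini-Hochberg adjusted p under 0.05 over all genes). The background is large: 77.2% of all genes tested were called, 38.4% higher and 38.9% lower. Among the 30 genes the shares were 63.3% and 20.0%. Of the 30 genes 13 rose at least 2-fold, against 12% of all genes, and 1 fell at least 2-fold, against 11.5% of all genes. The median log2 fold change was 0.91, beside -0.011 for all genes tested, and the range ran from -1.22 for PMVK to 3.96 for INSIG1. In 27 of the 30 genes the CPM values of WT and CBS KO did not overlap, which held for 79.1% of all genes. The exceptions were NSDHL, SOAT2 and MYLIP.

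The direction of small changes depended on the scaling. On the log2 scale all genes together had a median of -0.011 under TMM, -0.36 under the library total, -0.28 with log2(FPKM + 1) and -0.50 with log2(TPM + 1). Of the 19 rises 16 were called under each of the 16 alternative settings, and so were the 6 falls. The rise of ACAT2 was lost with FPKM and no filter and with TPM, and those of FDPS and NPC2 with TPM. The 5 genes that did not pass (MVK, NSDHL, NPC1L1, SOAT2 and MYLIP) were each called lower under the FPKM, TPM and library-total scalings.

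**Figure D1:**
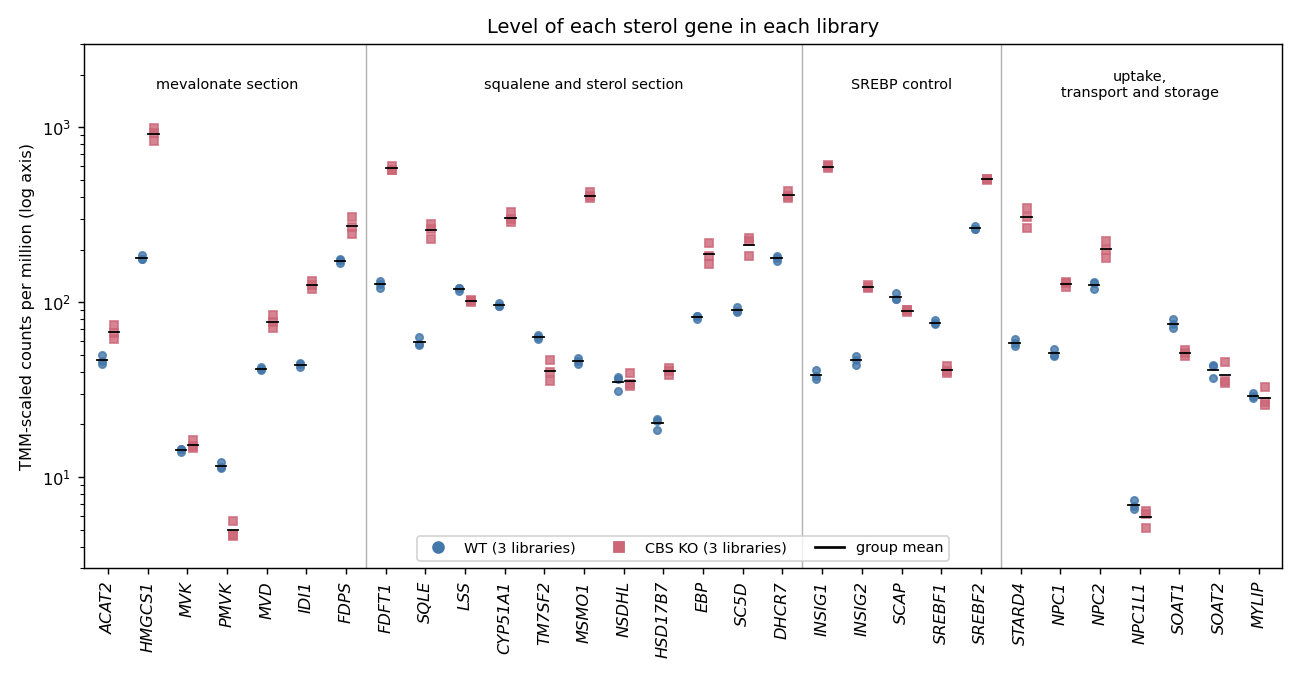
TMM-scaled CPM (log axis) of the 30 genes in each of 3 WT libraries (circles) and 3 CBS KO libraries (squares), with group means as lines, ordered by role. HMGCS1, FDFT1, SQLE, MSMO1, INSIG1 and STARD4 stand far above their WT values, while PMVK, LSS, TM7SF2, SCAP, SREBF1 and SOAT1 lie below theirs.

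In the mevalonate section 5 of 7 enzymes rose and 1 fell, for a median log2 fold change of 0.67 (0.079 with TPM). These shares were 71.4% and 14.3%, beside 38.4% and 38.9% of all genes. HMGCS1 (Entrez 3157, chr5:43287470-43313412), which condenses acetyl-CoA with acetoacetyl-CoA, rose furthest. It had 177, 186 and 177 CPM in WT, against 995, 925 and 833 in CBS KO. The groups lay far apart, and the rise was 5.098-fold (log2 fold change 2.35, SE 0.072, adjusted p = 4.98e-14, edgeR). The thiolase ACAT2, which makes acetoacetyl-CoA in the step before, went from 46.8 ± 2.56 to 67.3 ± 6.03 CPM, only 1.44-fold higher. Exons of ACAT2 share 1141 bases with SOD2 on the opposite strand, itself higher by 0.85 on the log2 scale, and the use of strand in counting is not given in the sources used here. Opposite-strand exons also share 306 bases between MVK and MMAB, 604 between NPC1 and RMC1 and 103 between NPC2 and ISCA2.

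The kinases that follow HMGCS1 in the pathway were not called higher. MVK, mevalonate kinase, stood at 14.5, 13.99 and 14.5 CPM in WT and 15.1, 14.6 and 16.3 in CBS KO, with an adjusted p of 0.323 (edgeR). Its 2 groups were adjacent without overlap, and its log2 fold change of 0.10 (95% interval -0.093 to 0.29) turned to -0.25 with the library total. PMVK, phosphomevalonate kinase (Entrez 10654, chr1:154924740-154942658), had 11.4, 12.1 and 11.2 CPM in WT and 4.59, 4.66 and 5.61 in CBS KO. Each CBS KO library was below each WT library, and the fall of 2.33-fold (log2 fold change -1.22, SE 0.12, adjusted p = 1.08e-07, edgeR) was the deepest of the 30 genes. Further down, MVD, the decarboxylase that yields isopentenyl pyrophosphate, rose 1.86-fold and its isomerase IDI1 rose 2.86-fold, from 43.95 ± 1.22 to 126 ± 6.55 CPM. FDPS, which joins these units into farnesyl pyrophosphate, rose 1.59-fold from 172 ± 4.34 to 274 ± 30.7 CPM. Its log2 fold change of 0.67 was 0.079 with TPM, and 8 annotated pseudogenes carry its name, so part of its reads is uncertain.

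From squalene to cholesterol 8 of 11 enzymes rose and 2 fell, for a median log2 fold change of 1.21. These shares were 72.7% and 18.2%, beside 38.4% and 38.9% of all genes. The median stayed above that of all genes under each scaling, at 0.61 with TPM. FDFT1, squalene synthase, which commits farnesyl pyrophosphate to sterols, rose 4.59-fold. Its CPM was 121, 127 and 133 in WT and 570.3, 574 and 604 in CBS KO, with an SD of 3.21% of the mean among the CBS KO libraries. SQLE, squalene epoxidase, a rate-limiting oxygenase of the pathway, stood at 56.6, 57.8 and 63.5 CPM in WT and at 282, 262 and 229.9 in CBS KO, 4.35-fold higher (log2 fold change 2.12, SE 0.076, adjusted p = 3.95e-13, edgeR). The next enzyme did not follow. LSS, which closes squalene epoxide to lanosterol, had 121, 116 and 120.2 CPM in WT and 101, 101 and 103 in CBS KO, a small but separated fall of 1.17-fold (adjusted p = 0.00147, edgeR).

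The enzymes of the demethylation steps after lanosterol went different ways. MSMO1 (Entrez 6307, chr4:165327669-165343164), the oxidase that attacks the methyl groups on ring carbon C-4, had 46.3, 47.7 and 44.2 CPM in WT and 427, 392 and 403 in CBS KO. Each CBS KO library exceeded each WT library by more than 8-fold, and the rise of 8.84-fold (log2 fold change 3.14, SE 0.062, adjusted p = 2.56e-16, edgeR) was the largest among the enzymes. NSDHL, the dehydrogenase that acts on the product of MSMO1, stood at 36.6, 30.99 and 37.5 CPM in WT and 33.04, 34.3 and 39.4 in CBS KO. These values overlapped and the test was not passed (log2 fold change 0.022, 95% interval -0.17 to 0.21, adjusted p = 0.829, edgeR). The FPKM ratio of MSMO1 to NSDHL within a library, which does not depend on library scaling, was 0.914, 1.09 and 0.845 in WT and 9.19, 7.96 and 7.36 in CBS KO. HSD17B7, the keto reductase that completes the removal, rose 1.98-fold, although 2 pseudogenes bear its name. CYP51A1, which removes the methyl group of lanosterol at the other ring position and has 3 annotated pseudogenes and a same-strand neighbour that shares its exons, rose 3.17-fold from 96.02 ± 2.12 to 305 ± 22.7 CPM. TM7SF2, the sterol reductase that acts on the product of CYP51A1, fell: it had 63, 64.8 and 61.5 CPM in WT and 35.7, 39.7 and 46.6 in CBS KO, 1.55-fold lower (adjusted p = 3.30e-06, edgeR).

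Taken over the libraries of each group, the last enzymes rose by nearly the same factor. EBP, the sterol isomerase, rose 2.31-fold, SC5D, the desaturase, 2.37-fold, and DHCR7, which reduces 7-dehydrocholesterol to cholesterol, 2.296-fold. Their 95% intervals of the log2 fold change overlapped, from 1.04 to 1.38, 1.08 to 1.41 and 1.07 to 1.33. The single CBS KO libraries diverged, with 167, 184 and 219 CPM for EBP and 234, 223 and 183 for SC5D, in opposite order. DHCR7 had 179.7, 171 and 185 CPM in WT and 403, 393 and 435 in CBS KO. The FPKM ratio of SC5D to DHCR7 was 0.173, 0.183 and 0.181 in the WT libraries and 0.205, 0.201 and 0.1499 in the CBS KO libraries, which surround the WT values.

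**Figure D2:**
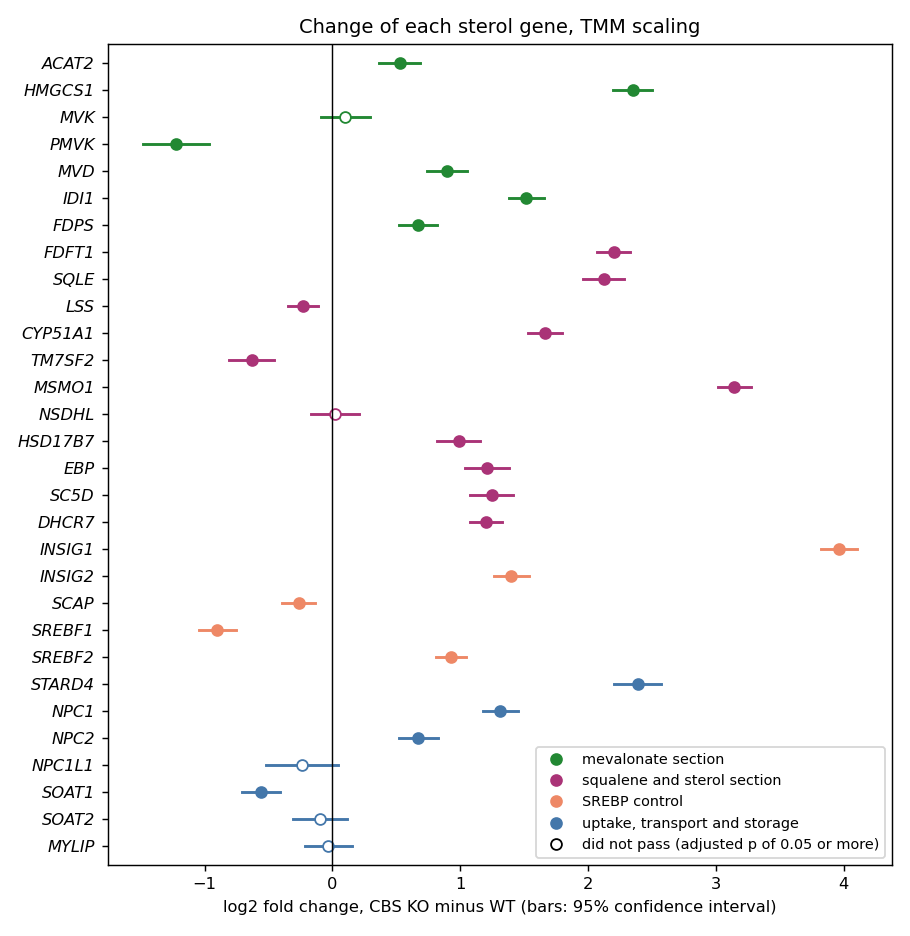
Log2 fold change of CBS KO over WT with its 95% confidence interval for the 30 genes, coloured by role and listed in pathway order, with open circles for the 5 genes that did not pass. Within the enzymes, PMVK, LSS and TM7SF2 lie left of 0 between neighbours that lie to the right. Of these neighbours MVK, beside PMVK, did not pass and its interval spans 0.

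Summed over the 18 enzymes, TPM (a gene's share of all transcripts after division by length) came to 1438, 1447 and 1483 in WT and 2573, 2419 and 2353 in CBS KO. The enzymes thus took a larger part of all transcripts in each CBS KO library than in any WT library. The make-up of that sum changed as well. FDPS, the most abundant enzyme transcript in WT, held 22.2 ± 0.372% of the enzyme TPM in WT and 13.98 ± 1.17% in CBS KO. FDFT1, the enzyme that uses the product of FDPS, went from 9.22 ± 0.262% to 16.5 ± 0.0488% and was the most abundant in CBS KO. The share of MSMO1 went from 3.07 ± 0.156% to 10.7 ± 0.595% and that of HMGCS1 from 5.42 ± 0.194% to 11.2 ± 1.25%. TM7SF2 went from 6.28 ± 0.248% to 1.603 ± 0.172%, PMVK from 2.09 ± 0.108% to 0.354 ± 0.0272% and LSS from 3.36 ± 0.0662% to 1.11 ± 0.0128%. The shares of SC5D overlapped between the groups, with means of 1.75% and 1.64%.

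**Figure D3:**
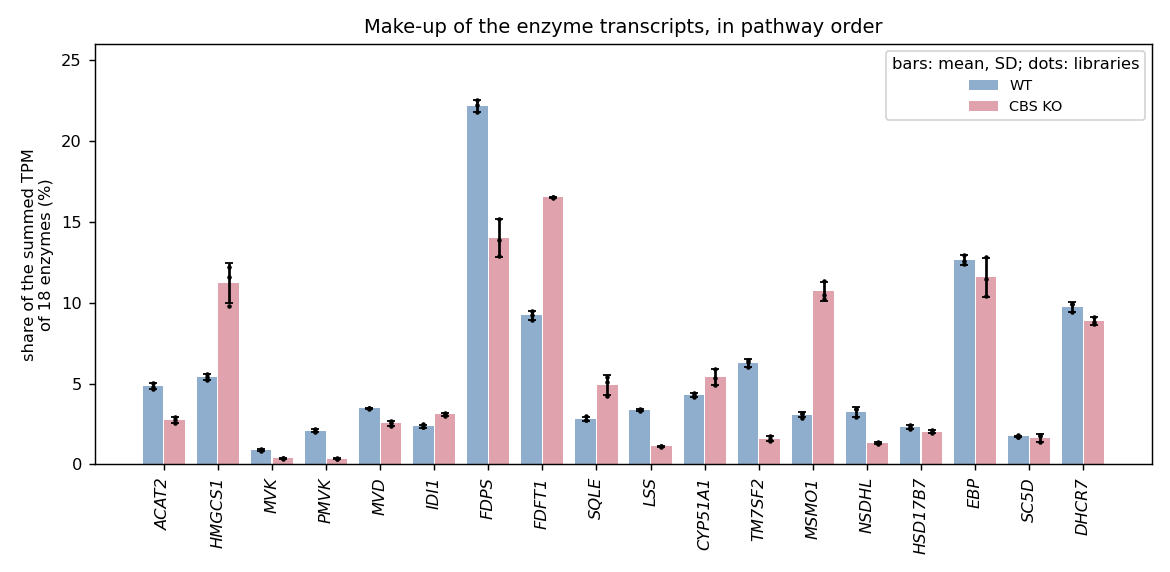
Share of each enzyme in the summed TPM of the 18 enzymes (%), as mean and SD of 3 libraries with single libraries as dots, in pathway order. FDPS leads in WT at 22.2% and FDFT1 leads in CBS KO at 16.5%, and MSMO1 reaches 10.7% there.

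Among the 5 control genes, both INSIG genes and SREBF2 rose and SCAP and SREBF1 fell. That made 60% higher and 40% lower, beside 38.4% and 38.9% of all genes, so the share of falls was near the background. INSIG1 (Entrez 3638, chr7:155297878-155310235), a retention protein that is itself a known SREBP target, had 38.01, 36.3 and 40.7 CPM in WT and 599, 584 and 608 in CBS KO. The rise of 15.6-fold (log2 fold change 3.96, SE 0.066, adjusted p = 3.66e-17, edgeR) was the largest of the 30 genes, and its size exceeded that of 99.3% of all genes tested. INSIG2, its homologue, went from 46.6 ± 2.65 to 123 ± 2.75 CPM, 2.64-fold higher. The FPKM ratio of INSIG1 to INSIG2 was 0.942, 0.951 and 1.14 in WT and 6.06, 5.64 and 6.03 in CBS KO, so the levels per length were near equal in WT and far apart in CBS KO. SCAP, the sterol-sensing escort that INSIG proteins hold, had 114, 104 and 104 CPM in WT and 90.02, 87.4 and 90.2 in CBS KO, a fall of 1.202-fold (adjusted p = 8.59e-04, edgeR). INSIG1 transcripts per length went from below to above those of SCAP, with a ratio of 0.496, 0.515 and 0.579 in WT and 9.92, 9.96 and 9.91 in CBS KO.

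The SREBP genes themselves went in opposite directions. SREBF2, whose product acts mainly on cholesterol genes, had 274, 264 and 261 CPM in WT and 505, 503 and 509 in CBS KO, a rise of 1.9-fold (log2 fold change 0.93, SE 0.055, adjusted p = 1.89e-10, edgeR). SREBF1, whose products act more on fatty acid genes, had 75.7, 74.8 and 79.1 CPM in WT and 43.1, 40.6 and 39.2 in CBS KO, a fall of 1.87-fold (log2 fold change -0.90, SE 0.068, adjusted p = 3.17e-09, edgeR). Neither pair of groups overlapped, and the FPKM ratio of SREBF2 to SREBF1 went from 2.94, 2.87 and 2.71 in WT to 8.39, 9.44 and 9.27 in CBS KO. An mRNA level does not measure the cleaved, nuclear form of either protein, and exons of SREBF1 share 556 bases with RAI1 on the opposite strand.

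SREBP proteins bind sterol regulatory elements in promoters, usually beside sites for the factors NF-Y and Sp1. The 250 bases before the annotated start were searched on both strands for TCACNCCAC, a strict form of the sterol regulatory element, for CCAAT, the core of the NF-Y site, and for GGGCGG, the core of the Sp1 site, and overlapping matches of different motifs were each counted. RefSeq promoters (GRCh38.p14) were matched for 26 of the 30 genes, with 33 start sites. No promoter was matched for ACAT2, FDFT1 and SQLE, which rose, or for SOAT2, which did not pass. TCACNCCAC was found for 1 of the 26, SREBF2, and for 1.24% of the 10659 tested genes with a promoter. CCAAT was found for 20 of the 26 (76.9%, against 41.9% of tested genes) and GGGCGG for 24 of the 26 (92.3%, against 74.1%). Over all single windows of this length the shares were 0.880%, 32.01% and 42.6%. Among the 26 genes with a promoter, CCAAT was present in 13 of the 16 that rose, 3 of 6 that fell and 4 of 4 that did not pass. Several starts give a gene more chances of a match. A match describes letters and is neither a site nor a cause.

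The promoter of SREBF2 is shown as the one with TCACNCCAC, that of SREBF1 for contrast in the same family, and those of INSIG1 and MSMO1 because these genes had the largest rises. All but SREBF2 were picked after their values were seen. All are 5′ to 3′ along the gene's strand, with TCACNCCAC and CCAAT (or ATTGG, its reverse complement) in capitals. They lie at chr22:41832855-41833104 (+), chr17:17836987-17837236 (-), chr7:155297628-155297877 (+) and chr4:165327419-165327668 (+).
SREBF2: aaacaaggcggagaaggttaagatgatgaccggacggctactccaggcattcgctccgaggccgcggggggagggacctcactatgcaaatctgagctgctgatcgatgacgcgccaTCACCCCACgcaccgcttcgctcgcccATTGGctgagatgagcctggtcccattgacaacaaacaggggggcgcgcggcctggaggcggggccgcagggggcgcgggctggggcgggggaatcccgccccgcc
SREBF1: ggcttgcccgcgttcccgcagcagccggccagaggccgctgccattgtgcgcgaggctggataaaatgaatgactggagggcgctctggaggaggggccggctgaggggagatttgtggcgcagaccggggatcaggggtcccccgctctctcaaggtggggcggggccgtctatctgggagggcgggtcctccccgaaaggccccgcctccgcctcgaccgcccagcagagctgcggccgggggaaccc
INSIG1: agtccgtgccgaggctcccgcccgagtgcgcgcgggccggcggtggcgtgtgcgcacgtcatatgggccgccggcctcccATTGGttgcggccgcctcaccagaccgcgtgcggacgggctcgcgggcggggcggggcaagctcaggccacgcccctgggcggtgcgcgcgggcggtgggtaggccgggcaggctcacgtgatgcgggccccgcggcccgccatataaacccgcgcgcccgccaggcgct
MSMO1: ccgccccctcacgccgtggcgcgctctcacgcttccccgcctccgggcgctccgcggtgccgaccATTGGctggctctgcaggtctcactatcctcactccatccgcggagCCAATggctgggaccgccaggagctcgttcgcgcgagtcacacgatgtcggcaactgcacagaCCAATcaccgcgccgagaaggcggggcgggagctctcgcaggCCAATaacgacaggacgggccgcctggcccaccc
SREBF2 holds the strict element 133 bases before its start with 1 CCAAT box between it and the start, INSIG1 holds 1 CCAAT box, MSMO1 holds 4, and SREBF1 holds 0 of either motif. Each of these genes had 1 matched start, and any other start of the gene was not searched.

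Of the 7 genes of uptake, transport and storage 3 rose and 1 fell, for a median log2 fold change of -0.033 beside -0.011 for all genes. The shares were 42.9% and 14.3%, beside 38.4% and 38.9% of all genes, so the share of rises was near the background. With the library total 3 rose and 4 fell (median -0.39), and with TPM 2 rose and 4 fell (median -0.64). In these settings 2966 and 2003 of all 13028 genes were higher, 7403 and 8594 were lower, and the medians were -0.36 and -0.50. STARD4 (chr5:111496033-111512535), a soluble carrier that moves sterol between membranes, had 61.2, 58.4 and 56.3 CPM in WT and 347, 309 and 265 in CBS KO. The groups were far apart, although the SD of the CBS KO libraries was 13.4% of their mean, and the rise was 5.23-fold (adjusted p = 1.24e-12, edgeR). NPC1 and NPC2, which together pass cholesterol out of the lysosome, rose 2.48-fold and 1.59-fold. NPC1, the membrane protein of the pair, had 54.1, 49.4 and 50.1 CPM in WT and 129, 122 and 131 in CBS KO. NPC2, the soluble partner, had the highest FPKM of the 30 genes in both groups, at 264 ± 13.7 in WT and 329 ± 18.1 in CBS KO. Its log2 fold change of 0.67 was 0.088 with TPM.

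SOAT1, SOAT2, NPC1L1 and MYLIP, the other members of this group, were not called higher. SOAT1, an acyltransferase that stores cholesterol as esters, had 74.9, 71.1 and 80.1 CPM in WT and 53.3, 48.95 and 51.1 in CBS KO, a separated fall of 1.47-fold (log2 fold change -0.56, SE 0.069, adjusted p = 1.47e-06, edgeR). SOAT2, the form that supplies esters for lipoproteins in intestine and liver, had 43.7, 43.1 and 36.9 CPM in WT and 35.5, 34.7 and 45.4 in CBS KO. These values overlapped and did not pass (95% interval of the log2 fold change -0.31 to 0.12, adjusted p = 0.386, edgeR), but without CBS KO replicate 3 SOAT2 was called lower (log2 fold change -0.24, adjusted p = 0.00526, edgeR, in a range of 1.84e-05 to 0.804 over all alternatives). NPC1L1, the sterol importer of the brush border, was the lowest of the 30 genes per length in both groups, at 1.85 ± 0.142 FPKM in WT and 1.14 ± 0.167 FPKM in CBS KO. It did not pass (log2 fold change -0.24, 95% interval -0.52 to 0.041, adjusted p = 0.11, edgeR). MYLIP, a ubiquitin ligase that LXR induces to remove lipoprotein receptors, had 28.9, 28.4 and 30.2 CPM in WT and 32.5, 25.9 and 26.9 in CBS KO, which overlapped (95% interval of the log2 fold change -0.22 to 0.15, adjusted p = 0.737, edgeR).

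The order of levels per length shifted with these changes. In WT the highest FPKM after NPC2 were those of FDPS (197 ± 5.68), EBP (112 ± 2.18) and DHCR7 (86.7 ± 3.14), and INSIG1 ranked 24 of 30 at 16.5 ± 0.979. In CBS KO, FDFT1 (289.7 ± 3.57) and FDPS (245 ± 18.7) followed NPC2. EBP (203 ± 19.6), INSIG1 (202 ± 5.67), HMGCS1 (197 ± 23.4) and MSMO1 (188 ± 12.96) came next and overlapped within their spread. At the lower end, SREBF1 went from rank 20 to 26 and SOAT1 from 13 to 25.

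Genes beside these in sterol metabolism were taken as 7 lists chosen by function. The first list held sterol efflux transporters, LXR receptors and genes tied to LXR. In it 0 of 6 tested genes rose and 5 fell, with a median log2 fold change of -0.80. The tested genes were ABCA1, NR1H2, NR1H3, RXRA, LPCAT3 and SMPDL3A, of which only ABCA1 is an efflux transporter. The falls were 83.3% of the list, beside 38.9% of all genes. ABCA1, which loads cellular cholesterol onto apolipoproteins, had 27.6, 23.3 and 22.3 CPM in WT and 0.984, 1.76 and 0.976 in CBS KO, 19.8-fold lower, and LPCAT3, a phospholipid acyltransferase and LXR target, fell 2.61-fold. The efflux half-transporters ABCG1, ABCG5 and ABCG8 were too low to test. The 6 genes of the machinery that degrades sterol enzymes likewise had 0 rises and 5 falls (83.3%, median -0.40). The segregase VCP fell 2.199-fold and its membrane cofactor FAF2 1.79-fold. Both lists stayed below the median of all genes under each scaling.

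The other lists were mixed. Of all 13028 genes tested, 38.4% were called higher and 38.9% lower with TMM. With the library total 2966 of them were higher and 7403 lower, and with TPM 2003 and 8594. Of 14 genes of SREBP processing and INSIG turnover 7 rose and 3 fell (50% and 21.4%, median 0.20). With the library total 5 rose and 7 fell (median -0.15), and with TPM 3 rose and 8 fell. The list median stayed above that of all genes, by 0.22 with the library total and 0.14 with TPM. PAQR3, a Golgi anchor of SCAP, rose 3.16-fold and the coat protein SEC24A 2.11-fold. Of 13 fatty acid genes known as SREBP-1 targets 8 rose and 4 fell (61.5% and 30.8%, median 0.40). The largest rises were those of the acetyl-CoA synthetase ACSS2 at 2.702-fold and the elongase ELOVL5 at 2.49-fold. With the library total 6 rose and 5 fell, and with TPM 5 rose and 6 fell (median -0.14). Their median still lay above that of all genes, by 0.41 with the library total and 0.36 with TPM. The non-sterol branches of the mevalonate pathway, which make dolichol, ubiquinone and prenyl groups, had 4 rises and 9 falls among 17 genes (23.5% and 52.9%, median -0.23). With the library total 3 rose and 12 fell, and with TPM 2 rose and 14 fell (median -0.78). The median lay below that of all genes, by 0.22 with the library total and 0.28 with TPM. In this list DOLK, the dolichol kinase, fell 6.44-fold, and FNTB, a subunit of farnesyltransferase, fell 4.86-fold, with 5.16, 5.19 and 2.03 CPM left in CBS KO. Among 17 other genes of sterol uptake and transport 12 rose and 2 fell (70.6% and 11.8%, median 0.33). With the library total 5 rose and 6 fell, and with TPM 2 rose and 9 fell. The median of this list stayed above that of all genes, by 0.34 and 0.25 in these settings. CAV1, a coat protein of caveolae, rose 3.22-fold, and LIPA, the lysosomal lipase that frees cholesterol from esters, rose 2.58-fold. Of 3 tested oxysterol and bile acid enzymes 1 rose, HSD3B7 at 1.44-fold, and 0 fell, but with the library total 0 rose and 1 fell.

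**Figure D4:**
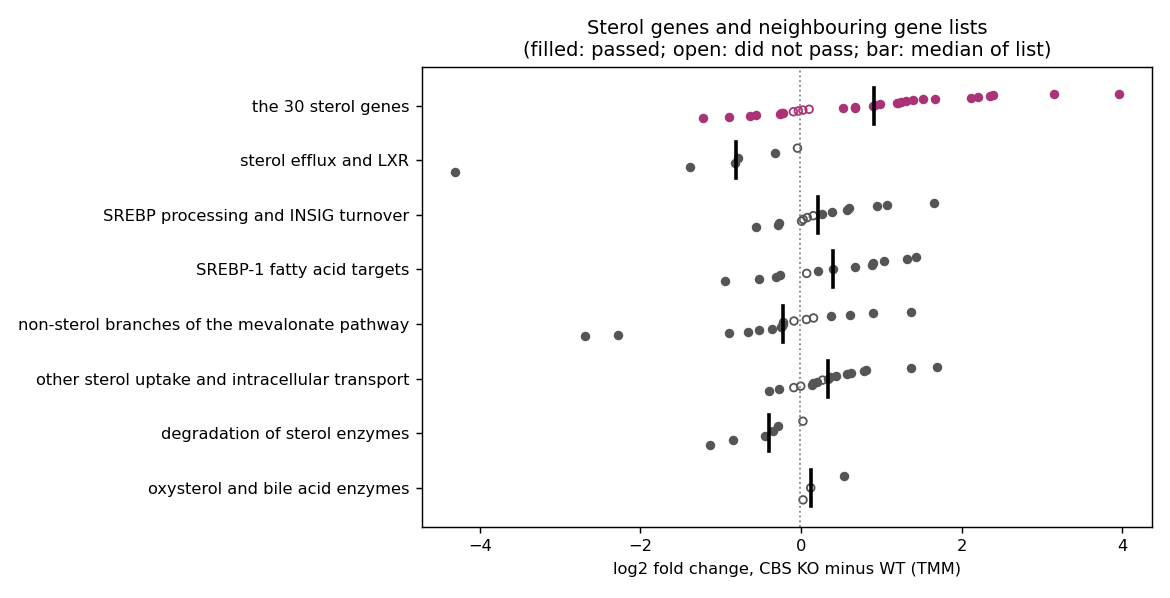
Log2 fold change of CBS KO over WT (TMM) for each tested gene of the 30 sterol genes and of 7 neighbouring lists, filled where the gene passed the test, with the list median as a bar and the median of all genes as a dotted line. The median of the 30 genes is 0.91, that of the efflux and LXR list -0.80 and that of the degradation list -0.40.

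Under other scalings the median of the set stayed above that of all genes, while its values shifted down with the library total, FPKM and TPM. With median-ratio factors in place of TMM the median of the 30 genes was 0.93, beside 0.91 with TMM. The median of the 30 genes lay above that of all genes by 0.922 with TMM, 0.921 with the library total, 0.83 with log2(FPKM + 1) and 0.822 with log2(TPM + 1), all on the log2 scale. The added 1 shrinks the change of low genes. INSIG1 had a log2 fold change of 3.34 with TPM and PMVK one of -1.70, so the extremes were the same genes. With the library total, FPKM and TPM, 11 of the 30 genes were called lower in place of 6. Among all 13028 genes those called lower went from 5062 with TMM to 7403 with the library total, 7282 with log2(FPKM + 1) and 8594 with log2(TPM + 1).

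**Figure D5:**
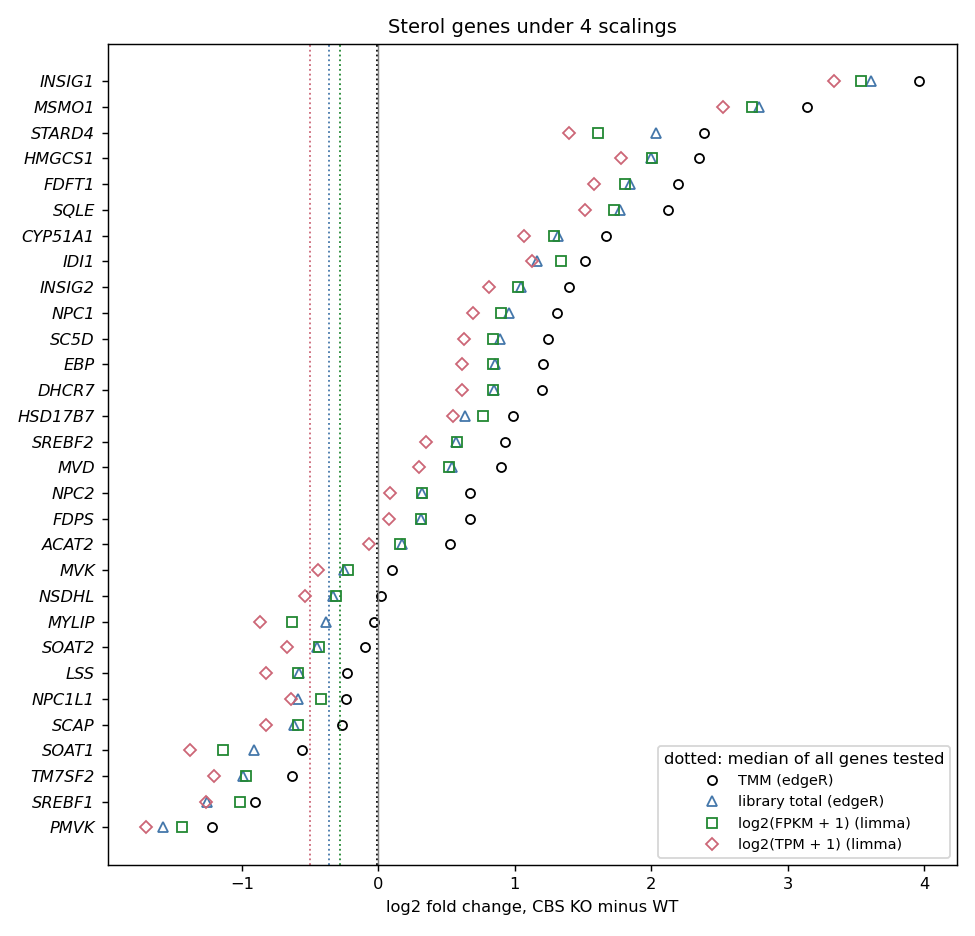
Log2 fold change of the 30 genes under TMM, the library total, log2(FPKM + 1) and log2(TPM + 1), ordered by the TMM value, with the median of all genes tested under each scaling as a dotted line. ACAT2, MVK and NSDHL have values on both sides of 0, and INSIG1, MSMO1, STARD4 and HMGCS1 stay far to the right.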

How the data were processed

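Polyadenylated RNA of 6 Caco-2 libraries (3 WT, 3 CBS KO) was sequenced as paired-end reads after removal of a dUTP-marked second strand, per the labels' protocols. Per the submitters' processing notes the build was GRCh38 and the tools included edgeR, DESeq2, StringTie 2.1.6, HISAT2 2.2.1 and cutadapt 1.9, with no roles stated, and the counting rule is not given in the sources used here. The authors deposited estimated counts, FPKM and TPM per gene, per the file headers, and 7.12 to 7.43% of the estimated counts in a library are not whole numbers. Their mean columns were not used.

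Estimated counts were rounded, filtered with filterByExpr and scaled by TMM, and the 2 groups were compared in edgeR 4.0.16 (R 4.3.3, with limma 3.58.1 and DESeq2 1.42.0 for alternatives) by the robust quasi-likelihood test, with no covariate and Benjamini-Hochberg adjustment over 13028 genes at 0.05. Standard errors come from the estimate and its F statistic, and 95% intervals use the test's degrees of freedom. Alternatives changed the scaling, the filter, the test, the unit and the libraries. For the unit, limma-trend was run on log2 FPKM with 1 or 0.1 added and on log2 TPM with 1 added. A count of 0 allows up to 0.164 to 0.264 CPM, for counting error only. Every member was named, with CBS and up to 2 called genes of largest change per neighbouring list. Members and lists were chosen with earlier results of these data known. Positions and promoters are from RefSeq GRCh38.p14, and overlapping exons and pseudogenes from GENCODE 29. Protein sequences were not used here.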

Additional observations from a re-analysis of the deposited data

How the results depend on the processing

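Of the 30 genes 22 kept their direction and side of the threshold under all 16 alternatives. Genes called higher numbered 4998 in all with TMM, and 2966 with the library total, 2945 with log2(FPKM + 1), 2943 with log2(FPKM + 0.1), 3151 with FPKM and no filter and 2003 with TPM. Those called lower numbered 5062, 7403, 7282, 7268, 7428 and 8594 in the same order, and the higher share of calls was 49.7, 28.6, 28.8, 28.8, 29.8 and 18.9%. Each of these 5 settings called 11 sterol genes lower. In that order MVK (log2 fold change 0.10 with TMM) reversed to -0.25, -0.22, -0.25, -0.22 and -0.44, and NSDHL (0.022) to -0.33, -0.31, -0.32, -0.31 and -0.54. NSDHL was also -0.016 without a filter on counts, and it ran from -0.071 (without CBS KO replicate 3) to 0.074 (without WT replicate 3) when single libraries were left out. MYLIP ran from -0.15 (without CBS KO replicate 1) to 0.023 (without CBS KO replicate 2), and ACAT2 was -0.068 with TPM. With the library total all genes shift by a common amount per library; FPKM and TPM also change the length assigned to a gene and the test, and the cause of each change was not tested. Leaving out each library in turn gave 4705 to 4985 genes higher and 4771 to 5201 lower in all, and 19 sterol genes higher and 6 to 7 lower. The replicate block gave 4986 and 5058 in all, with 19 sterol genes higher and 6 lower. Same-numbered libraries correlated at 0.056, 0.011 and 0.029 in their deviations from group means, so the numbers were not taken to pair them, and CBS KO replicate 2 correlated best with WT replicate 3. NPC1L1, at 5.12 to 7.41 CPM, and PMVK, at 4.59 to 5.61 CPM in CBS KO, are the members that depth limits most.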

Other observations

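The length that the deposited FPKM values assign to a gene can be followed as counts divided by FPKM, each library centred on its median over 10945 tested genes above 1 FPKM in each library. INSIG1 differed between the groups by -0.0065 and SQLE by -0.0029 on the log2 scale. STARD4, the sterol carrier, was assigned longer transcripts in CBS KO, by 0.37 on the log2 scale, a size larger than in 98.1% of genes. Its WT libraries lay at -0.15, 0.21 and -0.051 and its CBS KO libraries at 0.41, 0.33 and 0.39. MYLIP (0.29) and SOAT1 (0.28) shifted in the same direction. IDI1 (-0.21), SREBF1 (-0.17) and HSD17B7 (-0.16) shifted to shorter transcripts. For these 6 genes the change in FPKM therefore differs from that in counts, and transcript-level values were not analysed here.

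Within the CBS KO group, replicate 3 held the highest CPM of the 3 libraries for 18 of the 30 genes and the lowest for 8, against 39.0% and 38.1% of all genes. HMGCS1, SQLE, CYP51A1, SC5D and STARD4 were lowest in that library, and FDPS, EBP, MVD, NPC2 and TM7SF2 were highest. The median SD of the 30 genes was 3.999% of the mean in WT and 7.89% in CBS KO, beside 5.11% and 8.16% for all genes.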
